A study of Mus musculus with 24 samples.

Results

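Saa3, Lcn2 and Hp, 3 genes of the acute phase response, were followed through 24 libraries of mouse brain, each made from the left hemisphere of 1 animal. They were taken by gene symbol from the 55421 rows of the count table, and 3 of 3 were found and passed the filter on low counts together with 14377 other genes. The genes were selected on their measured rise after lipopolysaccharide (LPS) in these same libraries. Their change after LPS is therefore described without a test, and any comparison between genotypes after LPS shares libraries with the choice. A choice made on a steep rise in wild type can by itself favour genes whose rise there came out high. The mice were 3 months old, carried the strain label C57BL/6J and were labelled wild type or Nox2 knockout. Nox2, also called gp91phox and encoded by Cybb, is the electron-carrying core of the NADPH oxidase that phagocytes use to make superoxide. Each animal received an intraperitoneal injection of 100 µl on each of 4 consecutive days. The 12 animals of the LPS groups were given LPS of Salmonella abortus equi at 1 µg per g body weight per day, and the 12 controls were given phosphate-buffered saline (PBS). Wild type PBS, wild type LPS, knockout PBS and knockout LPS held 6 animals each. The labels name no tissue or promoter that would limit the knockout to some cells. The whole hemisphere was homogenised, so fewer cells of a type and less RNA per cell cannot be told apart.

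The acute phase response is the change in secreted proteins that follows infection or tissue injury. It is best known in the liver, where interleukin 6 acts through STAT3 and C/EBP factors and interleukin 1 and tumour necrosis factor act through NF-κB. The 3 genes are known outside the liver as well. Saa3 encodes a serum amyloid A protein that mice make in macrophages, fat and other tissues rather than mainly in hepatocytes. Lcn2 encodes lipocalin 2, which binds bacterial siderophores and so withholds iron, and which astrocytes, endothelial cells and neutrophils can make in an inflamed brain. Hp encodes haptoglobin, which captures free haemoglobin for uptake through the receptor CD163.

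On the mouse build GRCm38 with the GENCODE M21 annotation, Saa3 (ENSMUSG00000040026) lies on the minus strand of chromosome 7 at 46711998 to 46715700 and has 4 exons. Lcn2 (ENSMUSG00000026822) lies on the minus strand of chromosome 2 at 32384633 to 32388252, and its transcript Lcn2-201 has 6 exons and starts at 32387797, inside that span. Hp (ENSMUSG00000031722) lies on the minus strand of chromosome 8 at 109575128 to 109579172 and has 5 exons. No annotated gene overlapped any of the 3. The closest neighbours were Saal1, 1317 bases from Saa3 on the same strand, and Txnl4b, 1076 bases from Hp on the opposite strand. The stretches just upstream of the Saa3 and Lcn2 transcripts are shown because the 2 genes varied together between animals, as described further on. They come from RefSeq (GRCm38.p6), are trimmed to end at the base before the GENCODE transcript start and are read 5′ to 3′ on the minus strand. The Saa3 stretch has 226 bases (chr7:46715701-46715926) and the Lcn2 stretch has 192 bases (chr2:32387798-32387989). The Lcn2 stretch is upstream of Lcn2-201 but within the annotated gene. Capitals mark a match to the C/EBP motif on either strand.
Saa3: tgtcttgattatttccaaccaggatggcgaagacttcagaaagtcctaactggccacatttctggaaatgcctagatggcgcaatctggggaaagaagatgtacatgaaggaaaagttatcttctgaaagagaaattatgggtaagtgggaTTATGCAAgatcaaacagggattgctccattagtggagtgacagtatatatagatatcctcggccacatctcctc
Lcn2: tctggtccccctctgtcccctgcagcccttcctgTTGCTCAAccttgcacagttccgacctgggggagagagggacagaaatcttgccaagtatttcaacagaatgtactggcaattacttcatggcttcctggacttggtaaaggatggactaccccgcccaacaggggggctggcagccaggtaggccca

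The 4 motifs searched on both strands of the RefSeq windows of 300 bases were STAT3 (TTCNNNGAA), C/EBP (TTGCNNAA), the kappa-B motif and the TATA motif (TATAAA). The Saa3 window held 1 match to the C/EBP motif, TTATGCAA, 75 to 68 bases upstream of the transcript start. The Lcn2 window also held 1, TTGCTCAA, 158 to 151 bases upstream. The letters of the STAT3, kappa-B and TATA motifs were found in neither window. Over all 32851 windows in the RefSeq table, 10.8% held the C/EBP motif, 8.3% the STAT3 motif, 8.46% the kappa-B motif and 13.6% the TATA motif. A C/EBP match also stood in the windows of Saa1, Saa2 and Saa4, and such a match describes the letters only.

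Libraries held 2340184 to 5256169 counts. After scaling with TMM factors, 1 count per 1e+06 counts (CPM) stood for 2.33 to 5.21 counts. Cybb, the targeted gene, was at 1.49 ± 0.65 CPM (SD, n = 6) in wild type PBS and 24.6 ± 7.99 CPM in wild type LPS. In libraries labelled knockout it was higher, at 67.5 ± 5.12 CPM after PBS and 71.5 ± 3.96 CPM after LPS. Tags near the 3′ end do not show whether a transcript is disrupted further upstream, and the labels do not say which part of the gene was altered, so Cybb does not check the genotype labels and the group is called "labelled knockout" here. Wild type LPS replicates 1 and 2 stood apart from replicates 3 to 6. Their mitochondrial ribosomal RNA took 5.07% and 5.39% of counts, against 3.39% to 3.6% in the other 4. Labelled knockout LPS libraries lay between, at 3.9% to 4.71%, so this share also differed between the genotypes after LPS. Comparisons of the 3 genes that use wild type LPS are given with and without replicates 1 and 2.

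After PBS the 3 genes were close to the lowest level that the depth can show. Saa3 had 3 to 12 counts per library in wild type (lowest 0.850, median 1.86 and highest 3.01 CPM) and 3 to 20 counts in labelled knockout (lowest 0.672, median 1.36 and highest 5.17 CPM). Lcn2 had 0 to 4 counts in wild type and 0 to 7 in labelled knockout, with medians of 0.458 and 0.544 CPM. Hp had 4 counts over the 6 wild type libraries together and 8 over the 6 labelled knockout libraries. In each genotype 1 of 6 libraries had no Lcn2 count. Hp had none in 3 wild type and 2 labelled knockout libraries.

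After LPS every library of both genotypes lay above every PBS library for Saa3 and Lcn2. Saa3 in wild type ran from 731 CPM through a median of 1120 CPM to 1451 CPM, with the lowest values, 749 and 731 CPM, in replicates 1 and 2. In labelled knockout it ran from 217 CPM through a median of 538 CPM to 917 CPM. Replicates 2 and 5 were lowest there, at 217 and 324 CPM, and replicates 1 and 4 highest, at 917 and 802 CPM. The groups overlapped, as those 2 highest labelled knockout libraries lay above the lowest wild type library. Over genes with any count, ranked by mean CPM, Saa3 stood at 52 of 26833 in wild type LPS and at 146 of 27012 in labelled knockout LPS, compared with 14404 of 27040 in wild type PBS. With 3′ tags, a transcript's length has little bearing on such a rank.

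Lcn2 in wild type LPS ran from 72.0 CPM through a median of 82.8 CPM to 100.2 CPM. The spread between these 6 animals was the narrowest of the 3 genes after LPS, with a coefficient of variation of 14.7%. In labelled knockout LPS, Lcn2 ran from 31.2 CPM through a median of 56.4 CPM to 95.9 CPM, a coefficient of variation of 43.9%. The groups overlapped in 2 labelled knockout libraries, replicates 1 and 4. Saa3 had coefficients of variation of 26.8% in wild type and 48.3% in labelled knockout, and the difference in spread was not tested for either gene.

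Hp stayed the lowest of the 3, with 12 to 57 counts per library in wild type LPS and 3 to 27 in labelled knockout LPS. Wild type ran from 3.77 CPM through a median of 7.84 CPM to 13.7 CPM, with replicates 1 and 2 lowest and replicates 4 and 6 highest. Labelled knockout ran from 1.17 CPM through a median of 4.70 CPM to 6.09 CPM. The groups overlapped, with 3 labelled knockout libraries above the lowest wild type library. The highest PBS library, labelled knockout replicate 3 with 5 counts, lay at 1.36 CPM and so above the lowest LPS library.

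**Figure D1:**
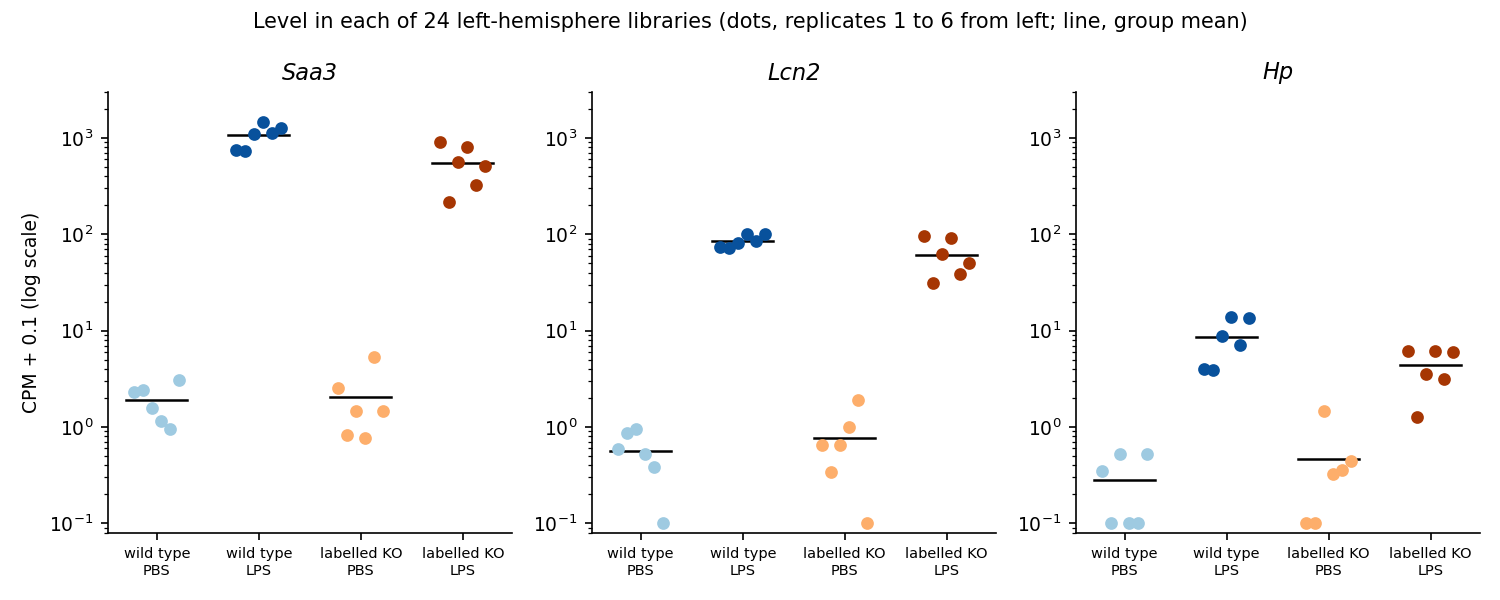
Levels of Saa3, Lcn2 and Hp as CPM + 0.1 on a log axis in each of the 24 libraries, by group, with replicates 1 to 6 from left to right and a line at the group mean. For Saa3 and Lcn2 all 12 LPS libraries lie above all 12 PBS libraries, and for each gene the 2 LPS groups overlap.

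As a description of what chose the genes, the fitted rise in wild type was 604-fold for Saa3, 152-fold for Lcn2 and 44.1-fold for Hp. Without wild type LPS replicates 1 and 2 the log2 rise in wild type went from 9.24 to 9.45 for Saa3, from 7.25 to 7.35 for Lcn2 and from 5.46 to 5.79 for Hp. In labelled knockout the fitted rise was 286-fold for Saa3, 86.3-fold for Lcn2 and 11.7-fold for Hp. The PBS level in the denominator rests on few counts, and a larger prior count in the fit lowered the Lcn2 and Hp folds, as given in the closing section. Together the 3 genes took 0.0804% to 0.157% of a library's counts in wild type LPS and 0.0247% to 0.102% in labelled knockout LPS. Saa3 alone made up 87.0% to 92.7% of that sum in the 12 LPS libraries.

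The other serum amyloid A genes did not share this level. Saa1 and Saa2, the main liver forms, had 16 and 3 counts over the 6 wild type LPS libraries, where Saa3 had 24458. In labelled knockout LPS they had 28 and 7 counts, where Saa3 had 13381. Saa4, a form made without stimulation, had 2 and 1 counts in the LPS groups. None of these 3 genes passed the filter, so they were not tested. Reads shared between near-identical copies can have been dropped or split by the authors' counting, which leaves the Saa1 and Saa2 counts uncertain. Of the hepatocyte markers, Alb (albumin) and Fgb (fibrinogen beta chain) had 0 counts in all 24 libraries. For either gene, 0 of 92251219 counts allows a level of up to 0.0325 CPM. In the hepatocyte list of 8 genes only Ttr passed the filter, and Ttr is also a choroid plexus gene.

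After LPS, edgeR called Saa3 lower in labelled knockout than in wild type, and Lcn2 and Hp were not called. The choice of the genes on a steep rise used these wild type LPS libraries. It can by itself favour a lower value in labelled knockout. The mean of Saa3 was 556 ± 269 CPM (SD, n = 6) in labelled knockout and 1075 ± 288 CPM in wild type. The fitted log2 difference was -0.94 ± 0.17 (SE; 95% interval -1.29 to -0.59; edgeR quasi-likelihood test, Benjamini-Hochberg adjusted p = 0.00157), or 1.92-fold lower. All 6 labelled knockout libraries lay below the wild type mean. Across all tested genes, 0.869% were called lower and 0.271% higher in this comparison.

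The Saa3 call depended on how its spread was treated. Its own quasi-dispersion, a measure of spread beyond counting error, was 22.2, while the trend for genes of its level was 0.794 and the moderated value used in the test was 10.7. With robust moderation, which kept the spread of Saa3 at 22.0, the adjusted p rose to 0.0735, and with DESeq2 it was 0.327. A two-sided exact permutation test of log2(CPM + 0.5) over the 924 arrangements of the 12 libraries gave p = 0.013, and 0.0779 after adjustment over the 6 such tests of the 3 genes. Without wild type replicates 1 and 2 the difference was -1.14 on the log2 scale (edgeR adjusted p = 1.34e-05).

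Lcn2 was at 61.6 ± 27.0 CPM in labelled knockout and 85.1 ± 12.5 CPM in wild type after LPS. Its fitted log2 difference was -0.43 ± 0.14 (SE; 95% interval -0.72 to -0.14; edgeR adjusted p = 0.152), with 4 of 6 labelled knockout libraries below the wild type mean. The exact permutation test gave p = 0.0736 (adjusted 0.165). Without wild type replicates 1 and 2 the difference was -0.53 and passed the threshold (edgeR adjusted p = 0.0391). It also passed without labelled knockout LPS replicate 1 (-0.60) or 4 (-0.57).

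Hp was at 4.30 ± 2.04 CPM in labelled knockout and 8.41 ± 4.39 CPM in wild type after LPS. The log2 difference, -0.94 ± 0.29 (SE; 95% interval -1.53 to -0.35; edgeR adjusted p = 0.115), was of the size of that of Saa3. It rested on 102 counts in labelled knockout and 195 in wild type. All 6 labelled knockout libraries lay below the wild type mean, and the exact permutation test gave p = 0.0823 (adjusted 0.165). Hp passed the threshold without wild type LPS replicate 1 (-1.07) or 2 (-1.09), and without both (-1.26, edgeR adjusted p = 0.00381).

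Depth, RNA composition and cell type markers also differed between these libraries, in both directions. The share of mitochondrial ribosomal RNA was higher in each labelled knockout LPS library than in wild type LPS replicates 3 to 6, and lower than in replicates 1 and 2. Labelled knockout LPS replicate 2, the lowest library for all 3 genes after LPS, was also the shallowest of the 12 LPS libraries, with 2595387 counts. With depth as a covariate the Saa3 difference was -1.03 and the Lcn2 difference -0.49, and both passed the threshold, while the Hp difference of -0.98 did not (edgeR adjusted p = 0.0661). The summed level of the 14 neutrophil markers, none of them at 0 throughout, ran from 135 to 740 CPM in wild type LPS and from 99.6 to 408 CPM in labelled knockout LPS. The counts called that follow stand beside 0.869% of all tested genes called lower and 0.271% higher. Of the 9 neutrophil markers tested, 1 was lower in labelled knockout, Mmp9 (log2 difference -0.87 ± 0.21, SE; adjusted p = 0.0201 by edgeR). The 10 reactive astrocyte markers summed to 466 to 675 CPM in wild type and 290 to 595 CPM in labelled knockout, and 1 of 8 tested was lower, Vim (-0.33 ± 0.09; adjusted p = 0.0405). The 8 endothelial markers summed to 397 to 508 CPM and 357 to 421 CPM, and 3 of 8 were lower, Esam, Cldn5 and Pecam1. The monocyte and border macrophage markers summed to 243 to 374 CPM and 184 to 272 CPM, with 1 of 10 lower, Lyz2. The microglia markers summed to 392 to 510 CPM and 347 to 440 CPM, with 2 of 8 lower, Cx3cr1 and Sall1. The pericyte and smooth muscle markers summed to 217 to 239 CPM and 170 to 213 CPM, with 1 of 6 lower, Rgs5. The remaining lists were mixed. Meninges and fibroblast markers ran lower too, with a median log2 difference of -0.19, and 0 of 7 were called. Choroid plexus markers summed to 669 to 1080 CPM in wild type and 1010 to 1120 CPM in labelled knockout, with 1 of 8 higher, Ttr. Erythroid markers summed to 0.981 to 18.2 CPM and 2.45 to 55.1 CPM, astrocyte identity markers to 4340 to 4650 CPM and 4330 to 4800 CPM (1 of 7 lower, Slc1a3), neuron markers to 4720 to 4960 CPM and 4870 to 5210 CPM, and meninges and fibroblast markers to 156 to 199 CPM and 128 to 186 CPM. Some markers also stand in the acute phase lists described further on, among them Serpina3n and Osmr of the reactive astrocyte list and Ccr2 of the monocyte list. No relation of a marker sum to the 3 genes was computed, and the part of these cells and of RNA composition in the differences of Saa3, Lcn2 and Hp was not tested.

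After PBS no difference between genotypes was found for the 3 genes, and the counts allow large ones. The log2 differences, labelled knockout minus wild type, were 0.14 ± 1.01 (SE) for Saa3, 0.39 ± 0.93 for Lcn2 and 0.97 ± 1.04 for Hp, with edgeR adjusted p of 0.987, 0.955 and 0.850. Their 95% intervals reached down to -1.90, -1.49 and -1.11. Across all tested genes 0.132% were called in this comparison. Saa3 in labelled knockout replicate 5 had 20 counts, and without that library the Saa3 difference turned to -0.45 and the Lcn2 difference to -0.14. Without replicate 3 the Hp difference was -0.04.

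The difference in the rise itself (the interaction, LPS change in labelled knockout minus that in wild type) was negative for each gene and passed the threshold for none. It was -1.08 ± 1.05 (SE) for Saa3, -0.82 ± 0.97 for Lcn2 and -1.91 ± 1.12 for Hp, with edgeR adjusted p of 0.789, 0.832 and 0.603. Of all tested genes, 0.00695% were called, which is the single gene Cybb, and 1403 had an unadjusted p under 0.05. DESeq2 called 2. None of the 3 genes was called for this difference by either tool. Its 95% intervals reached from -3.19 for Saa3, -2.77 for Lcn2 and -4.18 for Hp up to values above 0, on few PBS counts. The choice of the genes on a steep rise in wild type can by itself favour negative values here. Without wild type LPS replicates 1 and 2 the values were -1.29, -0.92 and -2.24, and none passed (edgeR adjusted p = 0.593, 0.722 and 0.281).

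**Figure D2:**
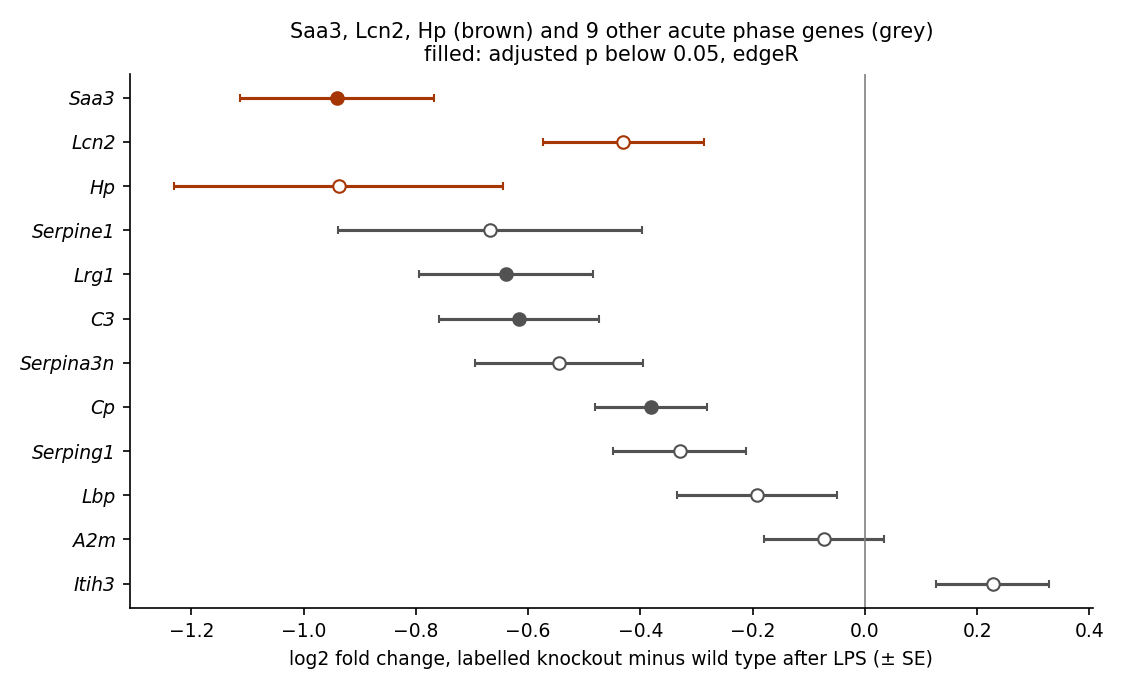
Log2 fold change, labelled knockout minus wild type after LPS, with its SE, for Saa3, Lcn2 and Hp (brown) and the 9 other tested acute phase genes (grey), from 6 libraries a group. Filled points passed an adjusted p of 0.05 in edgeR, and 11 of the 12 points lie below 0.

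The proportion of Saa3 to Lcn2 counts differed between the genotypes after LPS. This ratio cancels the depth of a library. In wild type LPS replicates 1 to 6 there were 10.2, 10.2, 13.7, 14.5, 13.4 and 12.8 Saa3 counts per Lcn2 count. In labelled knockout LPS replicates 1 to 6 there were 9.56, 6.96, 9.00, 8.78, 8.41 and 10.2. All but 1 of the labelled knockout libraries lay below the lowest wild type library. Within each genotype the lowest ratios stood in the libraries lowest in Saa3, wild type replicates 1 and 2 (749 and 731 CPM) and labelled knockout replicate 2 (217 CPM). The highest labelled knockout ratio stood in replicate 6, at 513 CPM. Whether the ratio follows the level of Saa3 rather than the genotype was not tested. The means were 12.5 ± 1.85 (SD, n = 6) and 8.82 ± 1.11, a log2 difference of -0.49 (two-sided exact permutation test over 924 arrangements, p = 0.00433, adjusted over the 3 ratios 0.013). The ratios were chosen after the data were seen. Leaving out each of the 12 libraries in turn gave differences of -0.55 to -0.43, and without wild type replicates 1 and 2 the difference was -0.63 (exact permutation p = 0.00476).

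**Figure D3:**
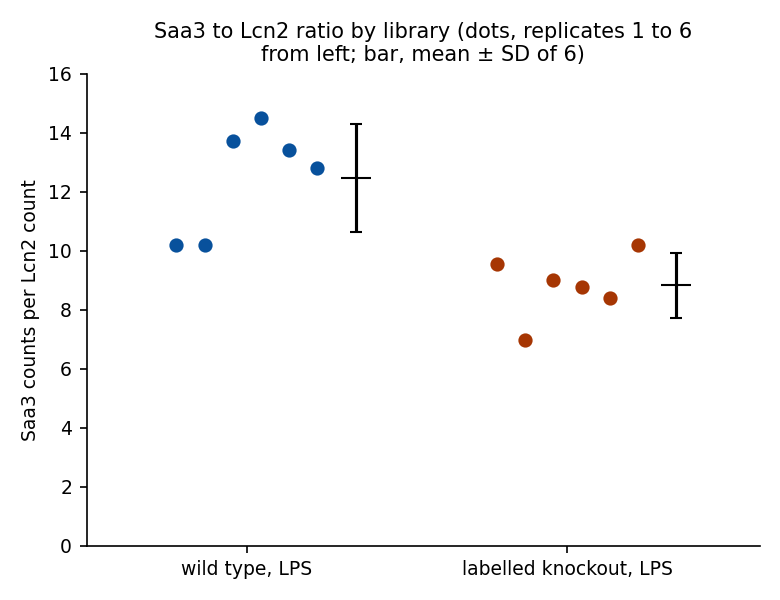
Saa3 counts per Lcn2 count in each of the 12 LPS libraries, replicates 1 to 6 from left to right, with the mean ± SD of each group of 6 beside them. Labelled knockout libraries run from 6.96 to 10.2 and wild type libraries from 10.2 to 14.5.

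The ratios that involve Hp did not show a difference beyond the spread. Saa3 to Hp was 146 ± 42.3 in wild type LPS and 137 ± 37.0 in labelled knockout LPS, a log2 difference of -0.08 (exact permutation p = 0.736, adjusted 0.736). Hp to Lcn2 was 0.0945 ± 0.0377 and 0.0701 ± 0.0274, a log2 difference of -0.41 (exact permutation p = 0.253, adjusted 0.380). The Hp counts, 3 to 57 per LPS library, limit the precision of both.

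Among the labelled knockout LPS animals, the 3 genes were high and low in the same libraries. Saa3 and Lcn2 had the same order over the 6 libraries (replicates 2, 5, 6, 3, 4, 1 from low to high). Over log2 CPM, Pearson's r was 0.982 (exact permutation p = 0.00139, adjusted over 6 relations 0.00833) and Spearman's rho 1.0 (exact permutation p = 0.00278, adjusted 0.0167). Without the 2 libraries farthest from the median of Saa3, r was 0.974. Saa3 and Hp had r = 0.9 (exact permutation p = 0.0125, adjusted 0.0278) and rho = 0.886 (p = 0.0333, adjusted 0.0667), and r fell to 0.716 without the 2 farthest libraries. Lcn2 and Hp had r = 0.816 (exact permutation p = 0.0444, adjusted 0.0533) and rho = 0.886 (p = 0.0333, adjusted 0.0667), and r was 0.594 without the 2 libraries farthest from the median of Lcn2. The relations with Hp thus rested in part on those libraries.

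Depth followed the same order in part. Total counts and Saa3 had r = 0.897 (exact permutation p = 0.0139, adjusted 0.0278) and rho = 0.829 (p = 0.0583, adjusted 0.0700) over these 6 libraries. For Lcn2, r was 0.855 (exact permutation p = 0.0306, adjusted 0.0458) and rho 0.829 (p = 0.0583, adjusted 0.0700). For Hp, r was 0.765 (exact permutation p = 0.0583, adjusted 0.0583) and rho 0.6 (p = 0.242, adjusted 0.242). Without the 2 libraries farthest from the median depth, r was 0.962, 0.924 and 0.805. The Saa3 to Lcn2 ratio, which the total does not enter, ran from 6.96 to 10.2 while Saa3 varied 4.22-fold. A factor that moves both genes alike leaves this ratio unchanged, and the part of depth in these relations was not tested. No r was tested over the wild type LPS libraries. Replicates 1 and 2 form a cluster of their own there, at 731 to 749 CPM of Saa3, below 1107 to 1451 CPM in the other 4. As a description that includes this gap, r in wild type LPS was 0.94 for Saa3 and Lcn2, 0.973 for Saa3 and Hp and 0.962 for Lcn2 and Hp.

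**Figure D4:**
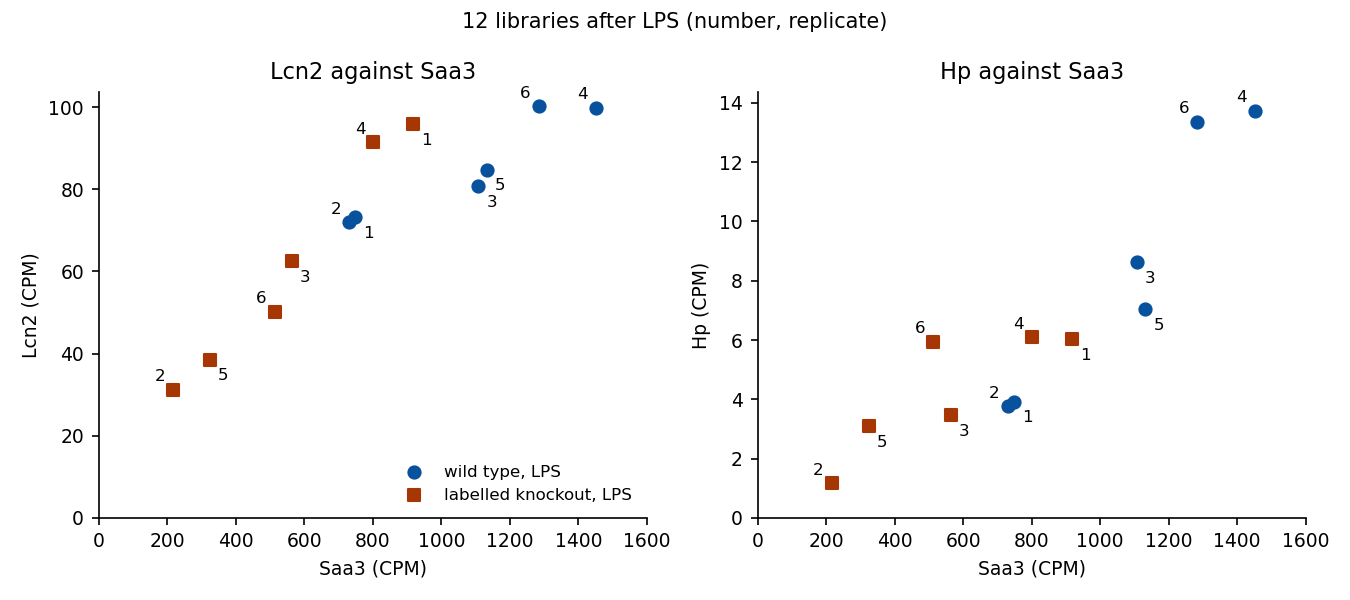
Lcn2 and Hp against Saa3, all in CPM, in the 12 LPS libraries, with the replicate number beside each point. Labelled knockout libraries (squares) spread from replicate 2, at 217 CPM of Saa3, to replicate 1, at 917 CPM, and 4 of the 6 lie below every wild type library (circles) for both Saa3 and Lcn2.

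Genes whose level followed each of the 3 most closely were ranked by Pearson's r over the 12 LPS libraries after subtracting each genotype's mean, among tested genes with a mean of at least 2 CPM. These r are a description, since libraries share depth and composition. Without wild type LPS replicates 1 and 2, over 10 libraries, the r of the 5 genes named for each lay between 0.87 and 0.979 with the gene they are listed under. For Saa3 the closest were Lcn2 (r = 0.962), Gfap (0.933), Il4ra (0.919), Mxra8 (0.913) and Lig1 (0.913). Gfap encodes the filament protein of astrocytes, Il4ra the receptor chain for interleukins 4 and 13, and Lig1 a DNA ligase. In wild type, LPS raised Gfap by 2.26 ± 0.10 on the log2 scale (SE), Il4ra by 1.81 ± 0.16 and Lig1 by 0.48 ± 0.10, with edgeR adjusted p of 1.77e-22, 1.63e-12 and 0.00019. Hp was the 10th closest to Saa3 (0.883, and 0.87 without those replicates).

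For Lcn2 the closest after Saa3 were Apod (apolipoprotein D, r = 0.897), Scg5 (0.892), Ash2l (0.882) and Gpnmb (0.882). These values rested unevenly on the genotypes: r was 0.966 for Scg5 in labelled knockout LPS and 0.204 in wild type LPS, 0.934 and 0.638 for Ash2l, and 0.916 and 0.68 for Apod. The difference was not tested, and the wild type values include replicates 1 and 2, which stand apart. Apod rose by 2.05 ± 0.12 and Gpnmb, a glycoprotein of activated phagocytes, by 1.81 ± 0.23 on the log2 scale after LPS in wild type (edgeR adjusted p = 1.56e-18 and 2.84e-08). Scg5, a neuroendocrine chaperone, was at 0.03 ± 0.05 in the same comparison (adjusted p = 0.740), and Ash2l was at -0.03 ± 0.08 (adjusted p = 0.861). For Hp the closest were Ctdnep1 (0.937), Kcnh3 (0.923), Tspo (0.923), Lcp1 (0.910) and Tln1 (0.907). Tspo, a mitochondrial outer membrane protein that microglia raise on activation, and Lcp1, the actin bundling protein of leukocytes, rose by 2.14 ± 0.16 and 2.01 ± 0.18 (adjusted p = 5.27e-15 and 3.77e-12). Ctdnep1, Kcnh3 and Tln1 were not called for LPS in wild type. Their log2 changes were 0.17 ± 0.07, -0.05 ± 0.08 and 0.14 ± 0.07 (edgeR adjusted p = 0.0763, 0.73 and 0.185). Saa3 was the 21st closest to Hp, and Hp the 94th closest to Lcn2 (r = 0.76, and 0.8 without those replicates).

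Other acute phase plasma proteins rose with LPS in the same libraries. Of 26 on the list, 9 passed the filter, and 9 of 9 were called higher in wild type and in labelled knockout. The filter can be passed through 1 group alone, so genes near 0 after PBS entered through their LPS libraries. C3 (0.983 CPM in wild type PBS) and Lrg1 (1.43 CPM) were among them, so the count leans in part on their own rise. Across all tested genes, 10.8% were called higher and 7.42% lower in wild type, and 7.01% higher and 3.98% lower in labelled knockout. The median log2 change of the 9 was 2.40 in wild type and 2.13 in labelled knockout, beside -0.01 and -0.003 over all tested genes. C3, the central complement component, went from 0.983 to 25.5 CPM in wild type (4.61 ± 0.23 on the log2 scale, SE). Serpina3n, a serine protease inhibitor, went from 5.01 to 108.9 CPM (4.40 ± 0.23). Lrg1, a leucine-rich glycoprotein, rose by 3.63 ± 0.22 and Cp, the ferroxidase ceruloplasmin, by 2.40 ± 0.12. The edgeR adjusted p of these 4 in wild type lay between 2.49e-20 and 1.44e-17.

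Between genotypes after LPS, 3 of these 9 were called lower in labelled knockout and none higher, with a median log2 difference of -0.38 beside -0.01 over all tested genes. The 3 were Lrg1 (-0.64 ± 0.15, SE; edgeR adjusted p = 0.0237), C3 (-0.62 ± 0.14; 0.0174) and Cp (-0.38 ± 0.10; 0.0424), while Serpina3n was at -0.54 ± 0.15 (0.0557). DESeq2 called 2 lower. The count was 1 without any of wild type LPS replicates 4 or 6 or labelled knockout LPS replicates 2 or 6, and 4 without wild type replicates 1 and 2. At an unadjusted p under 0.05, 6 were lower and 1 higher. Of all 14380 tested genes, 1656 had such a p in this comparison, in either direction.

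Of 9 plasma proteins that fall in the liver's acute phase response, 3 passed the filter. LPS calls over all tested genes were 10.8% higher and 7.42% lower in wild type, and 7.01% and 3.98% in labelled knockout. Between genotypes after LPS, 0.271% of all tested genes were called higher and 0.869% lower in labelled knockout. In wild type Trf (transferrin) had a log2 rise of 0.39 ± 0.06 (SE; adjusted p = 1.25e-06 by edgeR), Rbp4 (retinol-binding protein) was lower (-0.61 ± 0.15; adjusted p = 0.00197) and Ttr (transthyretin) was at -0.19 ± 0.07 (adjusted p = 0.0631). In labelled knockout none of the 3 was called by edgeR or DESeq2, and 1 had an unadjusted p under 0.05, as did 3130 of all 14380 tested genes. After LPS, Trf was lower in labelled knockout by -0.31 ± 0.06 (adjusted p = 0.00208) and Ttr higher by 0.33 ± 0.07 (adjusted p = 0.00938). The list's medians were -0.19 in wild type, 0.003 in labelled knockout and 0.26 between genotypes.

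Of the genes listed as inducing cytokines and their receptors, 12 of 20 passed the filter. LPS raised 7 of the 12 in wild type and 6 in labelled knockout and lowered none by edgeR, with medians of 0.60 and 0.58 on the log2 scale. DESeq2 called none lower either, and 1 and 0 were lower at an unadjusted p under 0.05. Across all tested genes, 10.8% and 7.01% were called higher. Of all 14380, 4294 and 3130 had an unadjusted p under 0.05 in either direction. Genes near 0 after PBS, such as Il1b (0.286 CPM in wild type) and Tnfrsf1b (1.31 CPM), passed the filter through their LPS libraries. The counts called higher and the medians thus lean in part on their own rise. Tnfrsf1a, a receptor for tumour necrosis factor, rose by 1.55 ± 0.16 (SE), Il1b by 3.88 ± 0.48, Osmr, the oncostatin M receptor, by 1.67 ± 0.23 and Il6ra, the interleukin 6 receptor, by 1.28 ± 0.18 in wild type (edgeR adjusted p between 7.58e-11 and 2.52e-07).

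Of the transcription factors and feedback genes of the response, 18 of 20 were tested, and LPS raised 13 in wild type and 12 in labelled knockout, with medians of 0.72 and 0.51. Across all tested genes, 10.8% and 7.01% were called higher. Genes near 0 after PBS, such as Bcl3 and Socs3 (1.13 and 1.34 CPM in wild type), passed the filter through their LPS libraries. The counts called higher and the medians thus lean in part on their own rise. Cebpd, the C/EBP factor best known for the acute phase, rose by 1.25 ± 0.13 (SE), Stat3 by 0.71 ± 0.08 and Socs3, its feedback inhibitor, by 2.56 ± 0.30 in wild type (edgeR adjusted p between 3.01e-10 and 3.14e-09). Bcl3, a partner of NF-κB, rose from 1.13 to 8.07 CPM (adjusted p = 3.52e-10). Stat3 and Socs3 came nearest to a difference between genotypes after LPS, at -0.27 ± 0.08 (adjusted p = 0.0733) and -0.72 ± 0.24 (adjusted p = 0.143).

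Genes for receptors of the 3 proteins rose in part. Of 16 listed, 12 were tested and LPS raised 8 of them in each genotype, with medians of 2.02 and 1.70. Across all tested genes, 10.8% were called higher in wild type and 7.01% in labelled knockout. Genes near 0 after PBS, such as Fpr1 (0 CPM in wild type) and Ccr2 (0.342 CPM), passed the filter through their LPS libraries. The count and the medians thus lean in part on their own rise. Itgam and Itgb2, the chains of the complement receptor CD11b/CD18 that binds haptoglobin, rose by 2.62 ± 0.15 and 2.51 ± 0.27 (SE) in wild type (edgeR adjusted p = 3.27e-18 and 4.34e-10). Fpr1, a formyl peptide receptor, had 0 counts after PBS and 73 after LPS in wild type, so it was at least 26.7-fold higher against 3 counts over the group. Ccr2, the monocyte chemokine receptor, rose by 3.90 ± 0.45 (adjusted p = 2.54e-09). Slc22a17, the brain receptor named for lipocalin 2, was at -0.08 ± 0.04 on 394 CPM in wild type LPS (adjusted p = 0.224), and Cd163, the haemoglobin-haptoglobin receptor, rose by 1.96 ± 0.32 (adjusted p = 7.89e-06). Slc22a17 and Cd163 were chosen after their values were seen, for their ligands.

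Iron and haem handling genes, into which lipocalin 2 and haptoglobin fall by function, rose for 8 of 15 tested in wild type and 5 of 15 in labelled knockout. Across all tested genes, 10.8% and 7.01% were called higher, and 3.98% lower in labelled knockout. Genes near 0 after PBS, such as Slc11a1 (0.707 CPM in wild type), passed the filter through their LPS libraries. The counts called higher and the medians thus lean in part on their own rise. Of the 15, 1 was called lower in labelled knockout, Slc48a1 (log2 change -0.19 ± 0.06, SE; adjusted p = 0.0301 by edgeR), and that call ended without any one of labelled knockout PBS replicates 2, 3 or 5 or LPS replicates 1, 3, 4 or 6. The list's medians were 0.55 and 0.28. Fth1, the ferritin heavy chain, rose by 0.56 ± 0.06, Hmox1, haem oxygenase 1, by 1.82 ± 0.25, Tfrc, the transferrin receptor, by 0.55 ± 0.09 and Slc11a1, a phagosomal metal transporter, by 2.36 ± 0.39 in wild type (adjusted p between 6.63e-11 and 7.35e-06). Fth1 was at -0.20 ± 0.06 between genotypes after LPS (adjusted p = 0.0637).

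In these last 4 lists edgeR and DESeq2 called no gene higher or lower between genotypes after LPS. At an unadjusted p under 0.05 the numbers lower in labelled knockout were 4 of 12 cytokine and receptor genes, 2 of 18 transcription factor genes, 6 of 12 receptor genes and 5 of 15 iron and haem genes. One receptor gene, and none in the other 3 lists, was higher at that p. Of all 14380 tested genes, 1656 had such a p in this comparison, in either direction, so 2 of 18 is near that share. The medians were -0.23, -0.11, -0.22 and -0.16 on the log2 scale. Without wild type LPS replicates 1 and 2, edgeR called 2 lower among the transcription factor genes, 2 among the receptor genes and 2 among the iron and haem genes.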

How the data were processed

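The deposited values are the authors' whole-number counts of 3′ tags per gene. The build is mm10 (GRCm38), and STAR 2.7.3a, Subread 2.0.0 with featureCounts, DESeq2 1.26.0, bcl2fastq and R 3.6.1 are named, all per the submitters' processing notes. Not given in the sources used here are the annotation release, the strand setting and how reads with several matches and PCR duplicates were treated. The limit given for a count of 0 covers counting error only, while SE and intervals of differences come from the fit and include the spread between animals. RNA input was 100 ng per library, for the QuantSeq 3′ kit, per the labels' protocols.

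All 24 libraries were fitted together with edgeR 4.0.16 under R 4.3.3, with 1 mean per group, TMM scaling, and the quasi-likelihood test (20 residual degrees of freedom). Filtering with filterByExpr at a minimum count of 10 left 14380 genes. Benjamini-Hochberg adjustment was made over these within each of 5 comparisons, and genes were called at an adjusted p under 0.05. SE are from this fit. DESeq2 1.42.0 was an alternative. Exact permutation tests were enumerated in Python 3.11.15 with numpy 2.4.6, with ranks from scipy 1.17.1. Correlations used log2 CPM with a prior count of 2.

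The members and the gene lists were chosen with earlier results of these data known. Named genes are the members, Cybb, for each of 7 pathway and 12 marker lists at most the 4 genes with the smallest p for LPS in wild type and the 4 for genotype after LPS, and the 5 genes most like each member, with predicted genes counted and not named. Every pair of libraries of a group differed by more than sampling noise. Labels give 6 animals per group. Replicate numbers were not used to match animals.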

Additional observations from a re-analysis of the deposited data

Results flagged for a closer look

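Hp in labelled knockout PBS replicate 3 was at 1.36 CPM, from 5 counts, while the other 5 libraries of the group had 0 or 1 count. The gap to the next library was 0.749 of the group's range, above Dixon's critical value of 0.625 for 6 samples. The same check covered 18 sets of 6 libraries. Chance exceeds the value in about 1 of 20 sets of normally distributed values, and that rate does not hold for counts this close to 0. Without this library the Hp difference between genotypes after PBS turned from 0.97 to -0.04 on the log2 scale.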

How the results depend on the processing

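Saa3 after LPS kept its direction, at -0.95 with DESeq2 and -0.94 with robust moderation, where it missed the threshold. Leaving out each library gave -1.14 to -0.78. Lcn2 after LPS passed the threshold with no filter (-0.42), with the replicate block (-0.49), without wild type LPS replicates 1 and 2 (-0.53) and with depth as a covariate (-0.49). Its values with 1 library left out ran from -0.60 to -0.32. Hp after LPS passed with no filter (-0.93), with the replicate block (-0.94) and without wild type LPS replicates 1 and 2 (-1.26), and ran from -1.09 to -0.74 with 1 library left out. With no filter the unadjusted edgeR p of Saa3 was 2.3e-77, against 2.4e-06 in the main fit, at nearly the same log2 difference. Passing the threshold with no filter is therefore not comparable with passing it in the other fits. After PBS, leaving out 1 library gave -0.45 to 0.35 for Saa3, -0.14 to 0.60 for Lcn2 and -0.0423 to 1.52 for Hp. A prior count of 2 lowered the LPS change in wild type to 6.36 for Lcn2 and 3.73 for Hp, and in labelled knockout to 5.71 and 2.52. Hp in labelled knockout ran from 3.28 to 4.57 with 1 library left out. Robust moderation, depth as a covariate, the ratios, the permutation tests and the likeness over 10 libraries were chosen after seeing the data.

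Counts of called genes moved as follows. After PBS the 19 became 88 with no filter, 33 with only the 2 groups, 38 with the replicate block and 36 without wild type LPS replicates 1 and 2, and 13 to 32 with 1 library left out. After LPS the 164 became 293, 275 with the block, 561 without those 2 replicates and 78 to 289 with 1 library left out. The interaction's 1 became 2 with DESeq2, 67 with no filter, 4 without ribosomal RNA rows, 8 with the block, 249 without those 2 replicates, 3 with robust moderation, 4 with depth and 1 to 20 with 1 library left out. The correlation of Saa3 and Hp ran from 0.766 to 0.954 and that of Lcn2 and Hp from 0.678 to 0.934 with 1 library left out, and p under 0.05 was lost in 4 and 5 of the 6 fits. The cause of these changes was not tested. Replicate numbers are shared by the groups, but no pair of same-numbered libraries deviated together (0 of 6 correlations over 0.1 in each comparison), so the block uses a number only. Counts in short lists moved by 1 or 2 genes, except that with only the 2 groups 4 and 5 receptor genes, not 8 and 8, were called higher after LPS in wild type and labelled knockout, and 3 iron and haem genes, not 5, in labelled knockout. In the fit of only 2 groups, Hp did not pass the filter in some comparisons and has no value there. Depth limits Hp and all 3 genes after PBS.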
